A study of Rattus norvegicus with 21 samples.

Results

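Libraries from 24 h of glucolipotoxic culture were set against the libraries numbered condition 2, pairwise within each of 3 rat islet preparations, which makes 6 of the 21 libraries of the series. Isolated islets of Sprague Dawley rats were cultured at 11 mM glucose without palmitate (control) or at 27 mM glucose with 300 µM palmitate (glucolipotoxic, GLT), for 3 h or 24 h. Some GLT groups had 300 nM of compound D or compound E, for which the labels give neither structure nor target. Each preparation was a pool of islets from 8 rats divided over the culture groups, so a library shows a pool and not an animal, and the 3 separate isolations are the replicates. Condition 4 is 24 h GLT in both sources. Condition 2 is 3 h GLT in the deposited sample sheet and 24 h control in the sample records. The 6 libraries of conditions 2 and 3 carry such differing labels. Under the sheet the comparison gives the length of GLT exposure (24 h against 3 h), and under the records it gives GLT against control medium at 24 h. The number is therefore kept as the name of the group throughout. The groups used beside them were 24 h and 3 h GLT with compound D (3 libraries each), condition 3 (24 h control in the sheet, 3 h GLT in the records) and 3 h control (3 each), and 24 h and 3 h GLT with compound E (2 libraries and 1).

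Glucolipotoxicity names the joint burden of high glucose and saturated fatty acid under which beta cells lose insulin content and secretory response. In the first hours glucose closes ATP-sensitive potassium channels, calcium enters, and calcium and cAMP signals switch on immediate early genes. With longer exposure the medium's fatty acids are oxidised or stored as lipid droplets, and oxidative and endoplasmic reticulum stress can follow. Islets also hold a dense net of fenestrated capillaries, stellate cells and macrophages, whose RNA is measured along with that of the hormone cells.

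Depth was 22.3 to 28.2 M counts in genes in the 6 libraries and 22.3 to 40.2 M in all 21. Levels are given as CPM (a gene's counts divided by the M counts of its library after TMM scaling), and 3 reads, taken as the detection floor, equal 0.104 to 0.131 CPM. Islet hormone genes were abundant in each library: the insulin genes Ins1 and Ins2 together took 23.0%, 25.8% and 9.32% of the counts in 24 h GLT, against 40.2%, 35.4% and 21.1% in condition 2, in the order of preparations 1, 2 and 3, which holds for every set of 3 values here. Markers of exocrine acinar cells summed to 11.2 to 17.1 CPM in 24 h GLT and 9.90 to 12.4 CPM in condition 2. Preparation 3 stood apart in both groups, with the lowest insulin share, ribosomal Rn45s reads at 4.89% of the counts in 24 h GLT and 5.72% in condition 2 (1.57% and 1.59%, against 1.52% and 1.45%, in preparations 1 and 2), and 1.85% and 2.32% of the reads ambiguous between genes. The part of these shares in the results was not tested beyond fits without the insulin and Rn45s genes, in which 1085 genes passed, or with a term for the ambiguous reads, in which 1277 passed.

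The libraries of condition 2 were placed on a scale made from groups whose labels do not conflict. On a scale over the 769 genes that passed between 24 h and 3 h GLT with compound D, with 3 h at 0% and 24 h at 100%, the 24 h GLT libraries lay at 66.5%, 52.9% and 73.3%. Condition 2 lay at -2.0%, -11.0% and 3.3% on it, near the 3 h end in each preparation. Libraries of 3 h control lay at 25.4%, 5.16% and 26.7%, and those of condition 3, whose labels conflict as well, at 72.8%, 62.6% and 74.5%. The condition 3 library of preparation 2 had an unusual 23.4% of reads with several alignments, described below. By mean absolute log2 difference over all genes, condition 2 was nearest to 3 h GLT with compound D in preparations 1 and 3 (0.431 and 0.344) and to 3 h GLT with compound E in preparation 2 (0.215). Txnip, the thioredoxin inhibitor gene that glucose induces, had 76.5, 90.9 and 46.9 CPM in 24 h GLT and 138, 108 and 47.3 CPM in condition 2, while 3 h control had 33.9, 50.3 and 34.4 CPM and condition 3 had 36.1, 74.3 and 41.1 CPM. With compound D it had 235.5, 467.9 and 194.4 CPM in 24 h GLT and 1117, 921.8 and 264.5 CPM in 3 h GLT, all above condition 2 of the same preparation, and with compound E 3 h GLT had 82.9 CPM in preparation 2. In its Txnip level condition 2 lay above 3 h control and below 3 h GLT with compound D in each preparation. The 24 h GLT and condition 2 values of Txnip overlapped, and its difference did not pass the test (-0.41, SE 0.33, adjusted p = 0.513).

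After 24 h GLT, 1072 of 12576 genes tested (8.52%) differed from condition 2, 457 higher (3.63%) and 615 lower (4.89%). Values in parentheses after a gene are fitted log2 fold changes of 24 h GLT over condition 2, with the standard error (SE) and the adjusted p of edgeR's quasi-likelihood test with Benjamini-Hochberg adjustment, 2-sided, n = 3 pairs, passed below 0.05. The change was at least 2-fold in 544 genes (4.33%), of which 178 were higher and 366 lower. In each of the 1072 genes all 3 pairs had the same sign, which holds for 59.3% of all genes tested, and in 1019 of them the groups did not overlap, which holds for 33.4% of all genes. The median over all genes was -0.02. Scaling by library size alone moved that median to 0.24 and turned the split from 42.6% to 71.7% higher among the genes that passed, so directions given here are relative to the bulk of genes under TMM; 11 of the 31 list medians changed sign with that scaling. The count fell most without preparation 1, to 21 genes, and was 83 without preparation 3 and 1222 without preparation 2.

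Genes of surface and secreted proteins were among the 12 with the largest rise after 24 h GLT. Gpr50, a receptor gene related to the melatonin receptors, had 7.39, 6.30 and 9.14 CPM in 24 h GLT, against 0.349, 0.125 and 0.208 CPM in condition 2 (5.05, SE 0.71, adjusted p = 9e-04). Abcb1a, the gene of the P-glycoprotein efflux pump, had 52.3, 30.4 and 93.7 CPM in 24 h GLT, against 3.23, 2.46 and 4.91 CPM in condition 2 (3.97, SE 0.43, adjusted p = 0.000147). In both genes the lowest 24 h GLT library lay far above the highest of condition 2, where Gpr50 was near the detection floor. Il23a, which encodes the p19 subunit of interleukin 23, had 51.2, 41.98 and 94.2 CPM in 24 h GLT, against 6.02, 6.79 and 7.47 CPM in condition 2 (3.13, SE 0.26, adjusted p = 1.15e-05). Cd24, a small glycoprotein anchored in the outer membrane, had 645, 611 and 769 CPM in 24 h GLT, against 73.7, 137 and 94.3 CPM in condition 2 (2.77, SE 0.38, adjusted p = 0.00085). Neither gene's groups overlapped. Cd69, an activation antigen of lymphocytes (4.23, SE 0.83, adjusted p = 0.0076), the annexin gene Anxa3 (3.71, SE 0.30, adjusted p = 1.1e-05) and the secreted glycoprotein gene Stc2 (3.16, SE 0.59, adjusted p = 0.00602) were also among these 12. So were Ipcef1 (3.07, SE 0.58, adjusted p = 0.00617), Mctp2 (3.07, SE 0.57, adjusted p = 0.00532) and Fam70b (2.62, SE 0.70, adjusted p = 0.0332). The alkaline phosphatase gene Alpl (2.51, SE 0.45, adjusted p = 0.00477) and the steroid reductase gene Srd5a1 (2.39, SE 0.38, adjusted p = 0.00206) complete them.

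**Figure D1:**
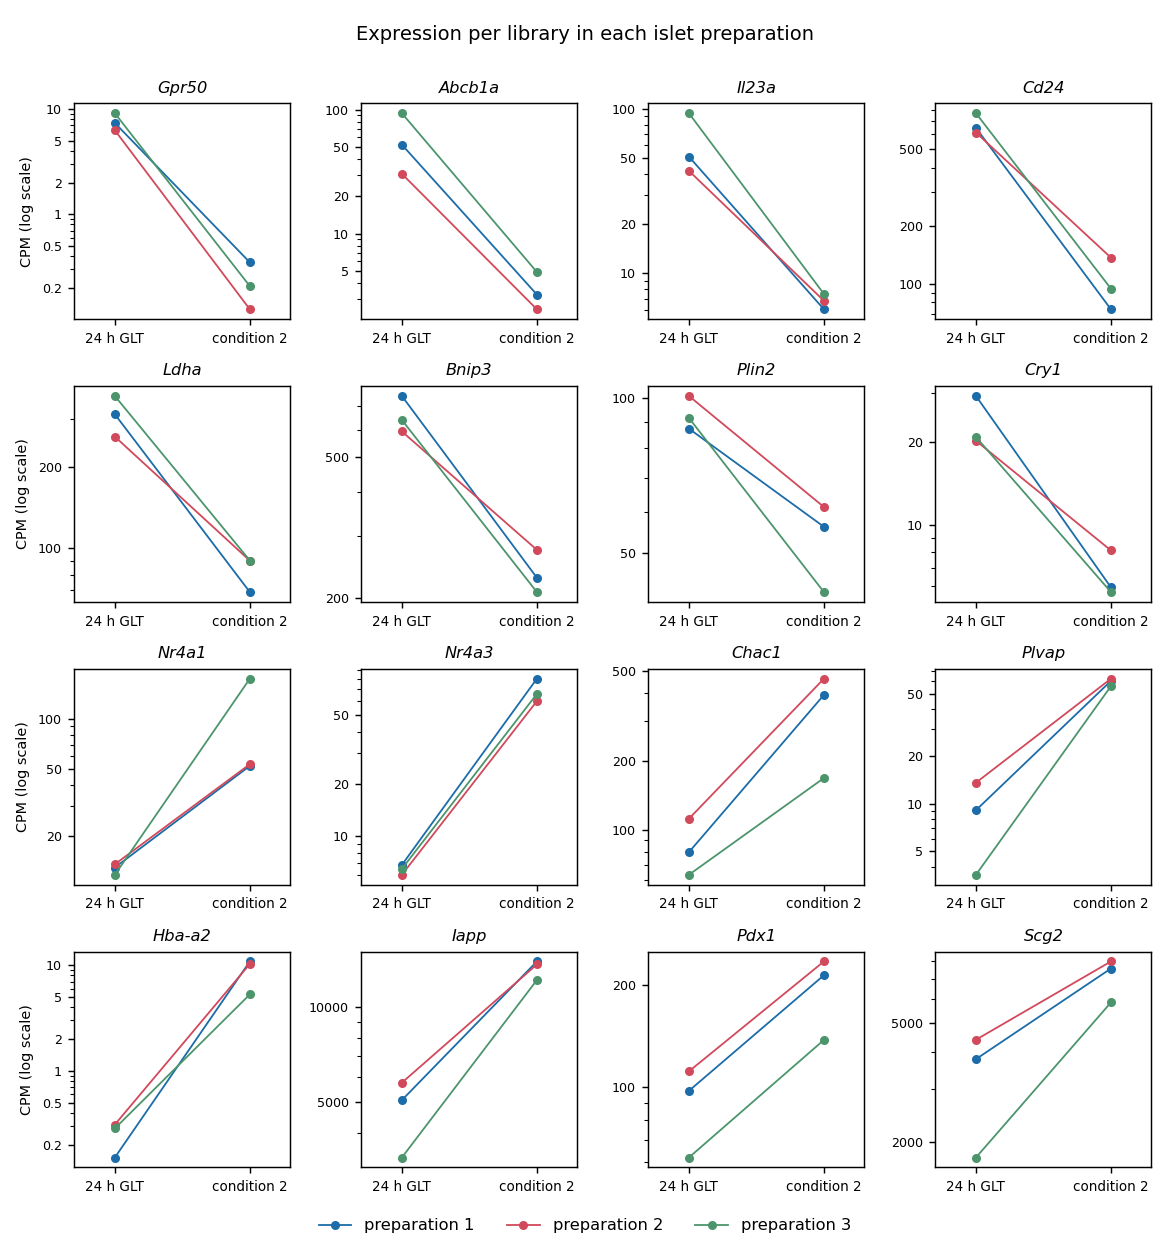
Each panel shows 1 gene, with CPM on a log axis for 24 h GLT (left) and condition 2 (right) and a line joining the libraries of a preparation. Gpr50, Abcb1a, Il23a, Cd24, Ldha, Bnip3, Plin2 and Cry1 were higher in 24 h GLT in all 3 preparations, and the other 8 genes were lower in all 3.

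Among the 12 largest falls were receptor, matrix, globin and immediate early genes. Fam46b had 0.188, 0.309 and 0.213 CPM in 24 h GLT, against 12.6, 6.50 and 11.3 CPM in condition 2 (-5.34, SE 0.70, adjusted p = 0.000546). Sstr1, a somatostatin receptor gene, had 0.980, 0.811 and 0.462 CPM in 24 h GLT, against 20.8, 18.5 and 5.74 CPM in condition 2 (-4.21, SE 0.61, adjusted p = 0.00124). Ypel4, a member of the Yippee family, had 9.42, 10.4 and 7.93 CPM in 24 h GLT, against 116, 94.1 and 97.9 CPM in condition 2 (-3.49, SE 0.27, adjusted p = 1.08e-05). In all of these the 3 libraries of 24 h GLT lay below the lowest of condition 2, although Sstr1 was lower in preparation 3 than in the others in both groups. The transmembrane collagen gene Col13a1 (-4.65, SE 0.64, adjusted p = 0.00085), the acidic matrix phosphoprotein gene Dmp1 (-4.46, SE 0.44, adjusted p = 6.53e-05) and the zinc finger repressor gene Giot1 (-3.10, SE 0.32, adjusted p = 0.000102) fell with them. The remaining 6 (Hba-a2, Plvap, Robo4, Nr4a3, Klf4 and a Fosb entry) are taken up with their groups.

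Immediate early genes, which code mostly for transcription factors induced within minutes of a stimulus, were lower after 24 h GLT. Of 40 tested, 14 fell (35%, beside 4.89% of all genes tested) and 0 rose. Of the 40, 38 had a negative log2 fold change, and the list's median was -1.08, beside -0.02 over all genes. The orphan nuclear receptor genes of the Nr4a family fell together. Nr4a1 had 12.9, 13.5 and 11.7 CPM in 24 h GLT, against 52.4, 53.6 and 174 CPM in condition 2 (-2.67, SE 0.43, adjusted p = 0.00228). Nr4a2 had 16.7, 14.2 and 14.8 CPM in 24 h GLT, against 123, 89.1 and 96.3 CPM in condition 2 (-2.74, SE 0.32, adjusted p = 0.000261). Nr4a3 had 6.82, 5.99 and 6.47 CPM in 24 h GLT, against 80.7, 59.9 and 65.9 CPM in condition 2 (-3.41, SE 0.56, adjusted p = 0.00262). The 24 h GLT values of each lay within a narrow range and below all of condition 2, where preparation 3 was the highest for Nr4a1 but not for the other two. Klf4, a Krüppel-like factor, had 12.9, 8.50 and 15.1 CPM in 24 h GLT, against 110.1, 68.6 and 85.8 CPM in condition 2 (-2.88, SE 0.37, adjusted p = 0.000466). Fos, the leucine zipper partner of Jun in AP-1, had 26.3, 20.6 and 14.3 CPM in 24 h GLT, against 93.1, 68.7 and 161 CPM in condition 2 (-2.23, SE 0.53, adjusted p = 0.0202). The Fosb gene, listed as LOC100360880 and matched by its gene ID, had 2.71, 0.270 and 0.640 CPM in 24 h GLT, against 5.11, 2.71 and 44.1 CPM in condition 2 (-3.30, SE 0.95, adjusted p = 0.0433). Its groups overlapped, and most of its reads lay in the preparation 3 library of condition 2. Egr4 (-3.85, SE 0.80, adjusted p = 0.0104), the Fos-related Fosl2 (-1.56, SE 0.29, adjusted p = 0.00532) and Rgs2, an inhibitor of Gq signalling (-1.44, SE 0.21, adjusted p = 0.00114), fell. So did Ier2 (-1.40, SE 0.30, adjusted p = 0.0123), Arc (-1.33, SE 0.36, adjusted p = 0.0344) and the cAMP-responsive modulator Crem (-1.06, SE 0.26, adjusted p = 0.0222). Fosl1 (-1.05, SE 0.30, adjusted p = 0.0425) and Btg2 (-0.83, SE 0.23, adjusted p = 0.0403) complete the 14. Egr1 had 14.9, 6.87 and 12.7 CPM in 24 h GLT, against 19.9, 11.5 and 96.7 CPM in condition 2, and did not pass (-1.52, SE 0.54, adjusted p = 0.0973), nor did Jun (-0.49, SE 0.39, adjusted p = 0.505) or Atf3 (0.65, SE 0.31, adjusted p = 0.222). Without preparation 1 or 3, 0 and 3 members passed; with any 1 of the 6 libraries left out, 6 to 10 did.

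Promoter windows of 300 bases (250 before and 50 after the gene's start) were available from RefSeq (build GRCr8) for 10175 of the 12576 genes tested. Only the 250 bases before the start were searched for the elements here and below. The cAMP response element (TGACGTCA, identical on both strands) stood in 27 of 495 promoters of genes that fell (5.45%), in 9 of 363 of genes that rose (2.48%), in 2.93% of the promoters of all genes tested and in 1.70% of all 27457 promoters. Its variant TGCGTCA, searched on both strands, stood in 28 of the 495 (5.66%), 7 of the 363 (1.93%), 3.18% of genes tested and 1.84% of all. Among 30 immediate early genes with a promoter, 5 held the full element (16.7%) and 2 the variant (6.67%). Of the 5, Btg2 and Ier2 fell, while Dusp1 (adjusted p = 0.279), Jund (adjusted p = 0.0935) and Maff (adjusted p = 0.122) did not pass. The variant stood in Fosl1 and Nr4a1, which both fell. Nr4a1 held 4 copies of it, first bases 248, 228, 84 and 55 before the start. Slc25a25, the gene of a calcium-dependent ATP-Mg/phosphate carrier of mitochondria, held the full element; named after its values were seen, it had 91.4, 97.7 and 105 CPM in 24 h GLT, against 643, 502 and 367 CPM in condition 2 (-2.34, SE 0.23, adjusted p = 6.53e-05). Ier2, another holder of the full element, had 27.7, 24.8 and 34.9 CPM in 24 h GLT, against 65.4, 61.5 and 110.0 CPM in condition 2. The 250 bases before the start of these genes, which show the element in genes that fell in every pair, read as follows, 5′ to 3′, with the element or its variant in capitals; a match is a run of letters and was not tested as a binding site.
Nr4a1 (GRCr8, chr7:134259888-134260137, + strand): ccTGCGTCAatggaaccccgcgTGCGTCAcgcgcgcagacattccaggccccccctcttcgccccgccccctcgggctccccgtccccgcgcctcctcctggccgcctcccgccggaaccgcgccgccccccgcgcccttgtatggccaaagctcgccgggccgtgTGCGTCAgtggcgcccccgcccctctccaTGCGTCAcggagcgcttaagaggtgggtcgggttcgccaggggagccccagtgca
Ier2 (GRCr8, chr19:40399123-40399372, + strand): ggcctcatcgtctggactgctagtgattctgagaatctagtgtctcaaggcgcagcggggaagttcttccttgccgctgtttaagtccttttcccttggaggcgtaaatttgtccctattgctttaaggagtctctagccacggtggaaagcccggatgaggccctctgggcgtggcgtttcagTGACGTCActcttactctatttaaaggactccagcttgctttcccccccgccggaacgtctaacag
Slc25a25 (GRCr8, chr3:36116582-36116831, - strand): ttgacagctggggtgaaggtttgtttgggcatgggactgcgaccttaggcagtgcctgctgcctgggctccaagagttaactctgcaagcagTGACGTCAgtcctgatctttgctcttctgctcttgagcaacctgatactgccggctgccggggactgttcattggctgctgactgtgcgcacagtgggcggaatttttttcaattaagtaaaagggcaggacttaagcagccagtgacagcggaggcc

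**Figure D2:**
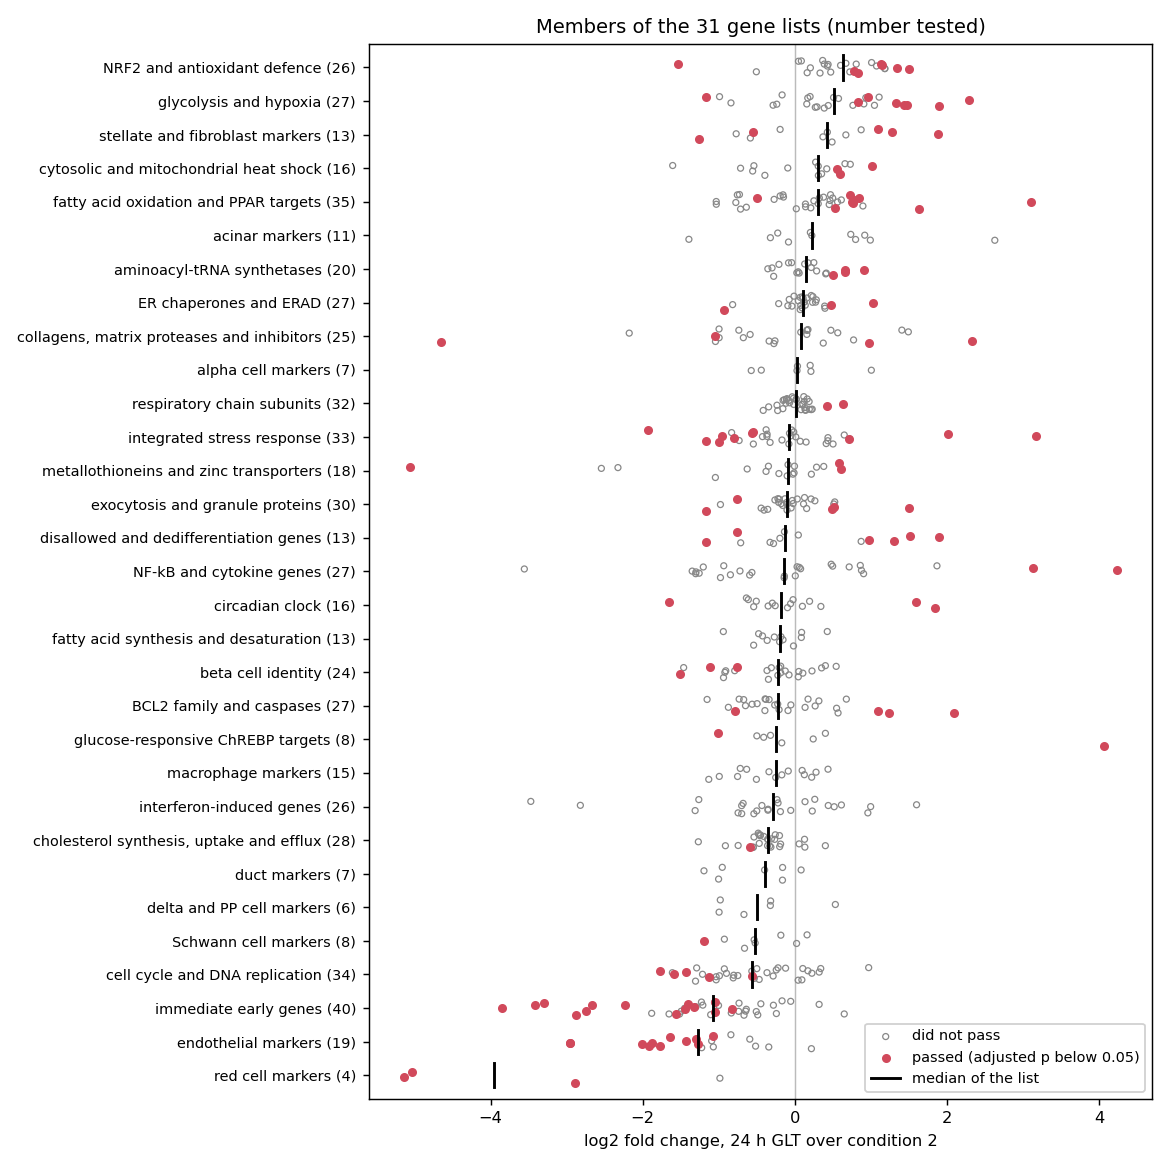
Log2 fold changes of 24 h GLT over condition 2 (horizontal axis) for the members of each gene list (rows, number tested in brackets); filled points passed the test, open points did not, and the bar is the list's median. Red cell, endothelial and immediate early genes have the lowest medians (-3.96, -1.27 and -1.08), and the NRF2 list the highest (0.63).

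Endothelial genes were lower after 24 h GLT, with a median of -1.27. Of 19 markers 11 fell (57.9%, beside 4.89% of all genes tested) and 0 rose. Plvap, which forms the diaphragms of fenestrated capillaries, had 9.12, 13.6 and 3.56 CPM in 24 h GLT, against 60.2, 62.2 and 55.8 CPM in condition 2 (-2.96, SE 0.46, adjusted p = 0.00199). Eng, the TGF-beta co-receptor endoglin, had 17.2, 16.5 and 16.4 CPM in 24 h GLT, against 67.2, 51.7 and 72.1 CPM in condition 2 (-1.92, SE 0.23, adjusted p = 0.000271). Kdr, the main receptor for VEGF, had 15.8, 15.5 and 4.59 CPM in 24 h GLT, against 48.7, 30.9 and 33.9 CPM in condition 2 (-1.78, SE 0.37, adjusted p = 0.0108). None of the 3 overlapped between groups, and preparation 3 had the lowest 24 h GLT level of each. Robo4 (-2.96, SE 0.86, adjusted p = 0.0447), the VEGF receptor gene Flt1 (-2.01, SE 0.56, adjusted p = 0.0394) and Sox17 (-1.64, SE 0.37, adjusted p = 0.0164) also fell. The angiopoietin receptor gene Tek (-1.88, SE 0.33, adjusted p = 0.00381) and its relative Tie1 (-1.44, SE 0.38, adjusted p = 0.0299) were lower too. Cdh5 (-1.23, SE 0.41, adjusted p = 0.0801) and Pecam1 (-1.07, SE 0.44, adjusted p = 0.153), genes of endothelial junctions, did not pass, and Cldn5 had 0 to 0.425 CPM in 24 h GLT and 0.0346 to 0.305 CPM in condition 2. Summed over the 19 markers, the level was 143, 163 and 71.4 CPM in 24 h GLT, against 379, 331 and 350 CPM in condition 2. In bulk RNA, fewer cells of a type and less RNA per cell cannot be told apart. Without preparation 1 or 3, 0 and 2 markers passed, and with any 1 of the 6 libraries left out 3 to 8 did.

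Red cell markers, globin genes among them, had the lowest median of the 31 lists (-3.96). Of 4 tested, 3 fell (75%, beside 4.89% of all genes tested). Hba-a2, an alpha-globin gene, had 0.151, 0.309 and 0.285 CPM in 24 h GLT, against 10.9, 10.3 and 5.29 CPM in condition 2 (-5.13, SE 0.58, adjusted p = 0.000207). Hbb-b1, a beta-globin gene, had 0.188, 0.309 and 0.107 CPM in 24 h GLT, against 1.53, 1.96 and 0.934 CPM in condition 2 (-2.88, SE 0.62, adjusted p = 0.0119), and Hbb fell as well (-5.03, SE 0.87, adjusted p = 0.00367). The 24 h GLT levels rest on few reads per library, and globin genes have near-identical copies, so the split of reads among copies is uncertain. Summed red cell markers were 0.565, 0.734 and 0.711 CPM in 24 h GLT, against 14.1, 13.8 and 9.34 CPM in condition 2.

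Of 13 markers of stellate cells and fibroblasts 3 rose and 2 fell (38.5%, beside 8.52% of all genes tested). The matrix genes Lum (1.87, SE 0.38, adjusted p = 0.00868), Dcn (1.27, SE 0.24, adjusted p = 0.00672) and Col3a1 (1.09, SE 0.30, adjusted p = 0.0354) were higher. The pericyte genes Cspg4 (-1.27, SE 0.23, adjusted p = 0.00492) and Pdgfrb (-0.56, SE 0.13, adjusted p = 0.0159) were lower. Their sum was 869, 1010 and 602 CPM in 24 h GLT, against 573, 531 and 520 CPM in condition 2. Of 15 macrophage, 11 acinar and 7 duct markers 0 passed, and of 8 Schwann cell markers Ngfr fell (-1.20, SE 0.34, adjusted p = 0.0416). Among matrix genes the collagenase gene Mmp13 rose, with 144, 68.1 and 159 CPM in 24 h GLT, against 23.4, 26.03 and 19.99 CPM in condition 2 (2.33, SE 0.57, adjusted p = 0.0225). Col18a1, the source of endostatin, also rose (0.98, SE 0.19, adjusted p = 0.00682), and the laminin gene Lama5 fell (-1.05, SE 0.24, adjusted p = 0.016).

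**Figure D3:**
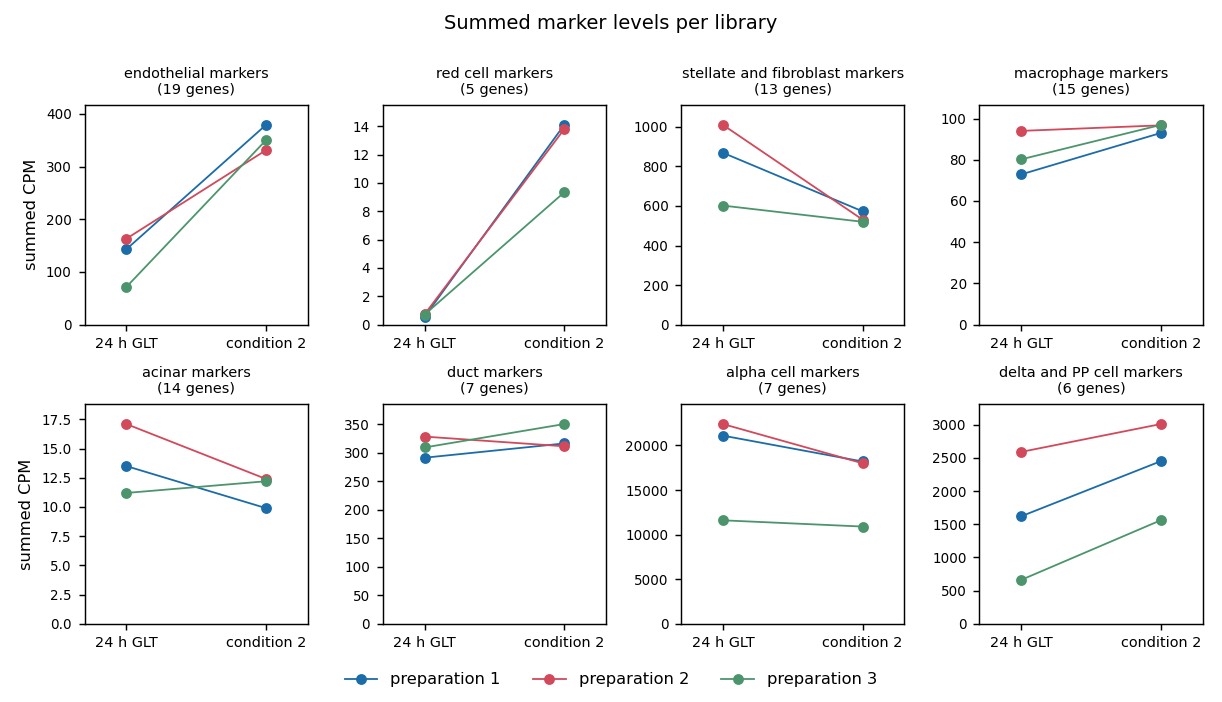
Summed CPM of the marker genes of 8 cell types (vertical axes from 0) in 24 h GLT (left) and condition 2 (right), with a line for each preparation. Endothelial, red cell, macrophage, and delta and PP cell markers were lower in 24 h GLT in all 3 preparations. Stellate and fibroblast markers and alpha cell markers were higher in all 3. Acinar and duct markers differed in direction between preparations.

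Of 24 genes on the beta cell list 3 passed (12.5%, beside 8.52% of all genes tested), all lower. Iapp, the gene of the amyloid peptide secreted with insulin, had 5081, 5769 and 3346 CPM in 24 h GLT, against 13950, 13650 and 12180 CPM in condition 2 (-1.51, SE 0.19, adjusted p = 0.000466). Pdx1, a transcription factor that beta cells need, had 97.6, 111 and 61.98 CPM in 24 h GLT, against 214, 235 and 138 CPM in condition 2 (-1.12, SE 0.25, adjusted p = 0.0159). The groups did not overlap for either gene. Nkx6-1, another beta cell transcription factor, had 252, 311 and 164 CPM in 24 h GLT, against 484, 573 and 226 CPM in condition 2 (-0.76, SE 0.21, adjusted p = 0.0365), with overlapping groups. The other 21 of the 24 genes on the beta cell list did not pass, the insulin genes included: Ins1 had 170200, 200800 and 53570 CPM in 24 h GLT, against 339900, 287400 and 128600 CPM in condition 2 (-0.94, SE 0.62, adjusted p = 0.405). Ins2 was lower in every pair and its groups did not overlap (-1.46, SE 0.57, adjusted p = 0.13). The list's median was -0.22 under TMM and 0.03 when scaled by library size alone. Glucagon (0.21, SE 0.23, adjusted p = 0.654) and somatostatin (-0.32, SE 0.49, adjusted p = 0.763) did not pass, nor did any of 7 alpha and 6 delta or PP cell markers. Without preparations 1, 2 and 3 in turn, 0, 4 and 1 beta cell genes passed.

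Genes normally kept silent in beta cells or gained when identity is lost went both ways. Of 13 tested, 4 rose and 2 fell (46.2%, beside 8.52% of all genes tested). Ldha, described with the glycolytic genes, Myc (0.97, SE 0.27, adjusted p = 0.0369), the neuropeptide gene Npy (1.31, SE 0.37, adjusted p = 0.0426) and the cholecystokinin gene Cck (1.52, SE 0.43, adjusted p = 0.0417) rose. The low-Km hexokinase gene Hk1 (-1.17, SE 0.31, adjusted p = 0.0293) and the ornithine aminotransferase gene Oat (-0.77, SE 0.17, adjusted p = 0.0159) fell. Npy had 259, 586 and 492 CPM in 24 h GLT, against 125, 188 and 224 CPM in condition 2, so its groups did not overlap. Of 30 genes of granules and exocytosis, 3 rose and 2 fell (16.7%, beside 8.52% of all genes tested). Scg2, a granin precursor of granules, had 3780, 4386 and 1778 CPM in 24 h GLT, against 7573, 7995 and 5839 CPM in condition 2 (-1.17, SE 0.18, adjusted p = 0.00195), and the granule membrane phosphatase Ptprn2 fell too (-0.76, SE 0.21, adjusted p = 0.0365). Sytl4, which encodes granuphilin, a docking protein of insulin granules, had 663, 622 and 745 CPM in 24 h GLT, against 205, 218 and 304 CPM in condition 2 (1.49, SE 0.38, adjusted p = 0.0252). Scg3 (0.51, SE 0.15, adjusted p = 0.0432) and Rab3d (0.49, SE 0.13, adjusted p = 0.0306) were higher with it. Without preparation 1 or 3, 0 members of either list passed.

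Of 27 glycolytic and hypoxia-responsive genes, 7 rose after 24 h GLT and 1 fell (29.6%, beside 8.52% of all genes tested). The other 19 did not pass, and the list's median was 0.51. Ldha, which makes lactate from pyruvate, had 312, 258 and 364 CPM in 24 h GLT, against 69.03, 90.1 and 90.2 CPM in condition 2 (1.89, SE 0.47, adjusted p = 0.0244). Bnip3, a mitochondrial mitophagy receptor that hypoxia induces, had 747, 593 and 639 CPM in 24 h GLT, against 228, 273 and 207 CPM in condition 2 (1.48, SE 0.33, adjusted p = 0.0139). Adm, the vasodilator peptide adrenomedullin, had 61.2, 50.3 and 87.8 CPM in 24 h GLT, against 15.1, 13.1 and 12.6 CPM in condition 2 (2.28, SE 0.55, adjusted p = 0.0211). For all 3, the lowest 24 h GLT library lay above the highest of condition 2. The glycolytic enzyme genes Pfkp (1.33, SE 0.34, adjusted p = 0.0258), Gpi (0.96, SE 0.23, adjusted p = 0.0204) and Pfkl (0.82, SE 0.22, adjusted p = 0.0317) rose. The oxygen-sensing hydroxylase gene Egln3 rose with them (1.43, SE 0.35, adjusted p = 0.0226), and Hk1, named above, fell. The hypoxia targets Vegfa (0.27, SE 0.22, adjusted p = 0.532) and Slc2a1 (0.38, SE 0.33, adjusted p = 0.546) did not pass. Without preparation 1 or 3 0 members passed, without preparation 2 14 rose and 1 fell, and with any 1 of the 6 libraries left out 0 to 3 rose.

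Of 25 promoters of these genes, 4 (16%) held the E-box CACGTG, identical on both strands, against 8.07% of genes tested and 5.79% of all promoters; the share was 6.61% among genes that rose, 7.88% among genes that fell and 16.7% (5 of 30) among the immediate early genes. The windows of Ldha and Bnip3, members that rose in every pair, are given as above with the E-box in capitals. The window of Ldha also holds the cAMP response element, in lower case.
Ldha (GRCr8, chr1:106507842-106508091, + strand): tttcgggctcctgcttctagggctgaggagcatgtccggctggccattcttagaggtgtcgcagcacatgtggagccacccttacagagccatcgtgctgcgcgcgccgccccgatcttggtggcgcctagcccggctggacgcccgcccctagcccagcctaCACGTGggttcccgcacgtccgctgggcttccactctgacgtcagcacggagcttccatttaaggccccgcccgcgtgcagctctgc
Bnip3 (GRCr8, chr1:203154963-203155212, - strand): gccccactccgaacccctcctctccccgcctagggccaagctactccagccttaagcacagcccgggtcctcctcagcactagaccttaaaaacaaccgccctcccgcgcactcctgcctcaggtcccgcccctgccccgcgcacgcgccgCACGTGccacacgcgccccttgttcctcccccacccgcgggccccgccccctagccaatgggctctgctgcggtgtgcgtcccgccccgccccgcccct

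Fatty acid oxidation genes and other targets of the lipid-sensing PPAR receptors rose in 8 of 35 cases and fell in 1. That is 25.7%, beside 8.52% of all genes tested, and the list's median was 0.31. Plin2, the coat protein of lipid droplets, had 87.3, 101 and 91.6 CPM in 24 h GLT, against 56.2, 61.4 and 41.9 CPM in condition 2 (0.84, SE 0.19, adjusted p = 0.0147). Slc25a20, the carnitine-acylcarnitine carrier, had 106, 110.2 and 104 CPM in 24 h GLT, against 64.7, 76.3 and 48.8 CPM in condition 2 (0.77, SE 0.16, adjusted p = 0.00982). In both genes the groups did not overlap, and the 24 h GLT levels of Slc25a20 agreed closely over the preparations. The dehydrogenase genes Acadl (0.72, SE 0.15, adjusted p = 0.00936) and Hadh (0.76, SE 0.20, adjusted p = 0.0327) and the thiolase genes Hadhb (0.53, SE 0.13, adjusted p = 0.0197) and Acaa2 (0.75, SE 0.21, adjusted p = 0.0404) rose. The peroxisome gene Pex11a rose as well (1.62, SE 0.33, adjusted p = 0.00929), and the acyl-CoA synthetase gene Acsl1 fell (-0.49, SE 0.14, adjusted p = 0.0406). Cpt1a, the gate enzyme of mitochondrial import (0.25, SE 0.15, adjusted p = 0.37), Pdk4 (0.14, SE 0.30, adjusted p = 0.848) and Ppara (0.89, SE 0.43, adjusted p = 0.23) did not pass. The coactivator Ppargc1a, which is outside this list and was named after its values were seen, had 4.86, 6.10 and 8.07 CPM in 24 h GLT, against 30.5, 15.5 and 37.5 CPM in condition 2 (-2.04, SE 0.56, adjusted p = 0.037). Without preparation 1, 0 members passed, without preparation 3 1, and with any 1 of the 6 libraries left out 1 to 7 rose.

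Of 28 genes of cholesterol synthesis, uptake and efflux, 1 passed (3.57%, below the 8.52% of all genes tested), and the list's median was -0.36. It was the efflux transporter gene Abcg1, which fell (-0.59, SE 0.15, adjusted p = 0.0246), with overlapping groups. Of 13 genes of fatty acid synthesis and desaturation 0 passed; the desaturase entry Scd had 2461, 2460 and 2751 CPM in 24 h GLT, against 2091, 1623 and 2010 CPM in condition 2 (0.42, SE 0.22, adjusted p = 0.254), and may share reads with its near copy Scd1. Among 8 targets of the glucose-sensing factor ChREBP, its own gene Mlxipl fell, with 44.1, 38.9 and 38.8 CPM in 24 h GLT, against 75.4, 60.6 and 114 CPM in condition 2 (-1.01, SE 0.29, adjusted p = 0.0424).

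Antioxidant genes, many under the oxidant-sensing factor NRF2, rose in 6 of 26 cases and fell in 1 (26.9%, beside 8.52% of all genes tested). The other 19 did not pass. The list's median was 0.63, the highest of the 31 lists. Gsr, glutathione reductase, had 111, 115 and 106 CPM in 24 h GLT, against 59.7, 75.4 and 54.4 CPM in condition 2 (0.82, SE 0.18, adjusted p = 0.0133). Hmox1, heme oxygenase, had 320.1, 223 and 975 CPM in 24 h GLT, against 108, 112 and 341 CPM in condition 2 (1.345, SE 0.33, adjusted p = 0.0215). Hmox1 was higher in the condition 2 library of preparation 3 than in the 24 h GLT libraries of preparations 1 and 2, so its groups overlapped, while those of Gsr did not. Catalase, Cat (1.14, SE 0.25, adjusted p = 0.0143), Gsta4 (1.49, SE 0.38, adjusted p = 0.027) and Taldo1 (0.78, SE 0.22, adjusted p = 0.0416) rose, and the secreted peroxidase gene Gpx3 fell, with 100.3, 98.6 and 36.5 CPM in 24 h GLT, against 269.6, 253 and 130.2 CPM in condition 2 (-1.53, SE 0.32, adjusted p = 0.0103). Nqo1 (1.01, SE 0.33, adjusted p = 0.0768) did not pass. Without preparation 1, 0 members passed, without preparation 3 1, and without preparation 2 12 rose and 1 fell; with any 1 of the 6 libraries left out 1 to 4 rose.

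Genes of the integrated stress response, which ATF4 drives when amino acids are short or the endoplasmic reticulum is stressed, went both ways. Of 33 tested, 3 rose and 7 fell (30.3%, beside 8.52% of all genes tested). Chac1, an enzyme that degrades glutathione, had 79.6, 112 and 63.3 CPM in 24 h GLT, against 392, 461 and 169 CPM in condition 2 (-1.93, SE 0.22, adjusted p = 0.00026). Slc7a1, a carrier of cationic amino acids, had 113, 109 and 122 CPM in 24 h GLT, against 240.2, 192 and 261 CPM in condition 2 (-1.004, SE 0.19, adjusted p = 0.00518). Stc2, also on this list, had 24.01, 27.8 and 32.7 CPM in 24 h GLT, against 3.32, 4.41 and 2.39 CPM in condition 2. The groups did not overlap in any of the 3. Ddit4 (-1.17, SE 0.26, adjusted p = 0.0136), Trib3 (-0.96, SE 0.27, adjusted p = 0.0408) and Slc38a2 (-0.81, SE 0.20, adjusted p = 0.0225) fell. So did Mthfd2 (-0.57, SE 0.14, adjusted p = 0.0222) and Slc7a5 (-0.55, SE 0.13, adjusted p = 0.0177). Slc7a3 (2.01, SE 0.39, adjusted p = 0.00718) and the serine synthesis gene Phgdh (0.70, SE 0.16, adjusted p = 0.0177) rose. Atf4 (-0.37, SE 0.15, adjusted p = 0.14) and Ddit3, which encodes CHOP (-0.04, SE 0.29, adjusted p = 0.958), did not pass. Of 20 aminoacyl-tRNA synthetase genes, 4 rose (20%, beside 3.63% of all genes tested) and 0 fell. Wars led them, with 167, 169.8 and 216 CPM in 24 h GLT, against 80.5, 92.2 and 126 CPM in condition 2 (0.90, SE 0.14, adjusted p = 0.00204). Farsb (0.65, SE 0.13, adjusted p = 0.00662), Dars (0.66, SE 0.14, adjusted p = 0.0119) and Qars (0.49, SE 0.13, adjusted p = 0.0338) rose as well. Without preparation 1, 0 members of either list passed, and without preparation 3 2 stress response genes fell.

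Of 27 genes of endoplasmic reticulum chaperones and degradation, 2 rose and 1 fell (11.1%, beside 8.52% of all genes tested), and the median was 0.11. Ero1l, the oxidase that serves disulfide formation and responds to hypoxia, had 381, 301 and 309.7 CPM in 24 h GLT, against 166, 162 and 154 CPM in condition 2 (1.03, SE 0.29, adjusted p = 0.0404). P4hb, the protein disulfide isomerase, had 2226, 2320 and 2142 CPM in 24 h GLT, against 1564, 1618 and 1655 CPM in condition 2 (0.47, SE 0.14, adjusted p = 0.0435), and the degradation factor gene Derl3 fell (-0.94, SE 0.27, adjusted p = 0.0449). Hspa5, the chaperone BiP, had 6075, 5529 and 6259 CPM in 24 h GLT, against 4417, 4797 and 4386 CPM in condition 2 and did not pass (0.39, SE 0.14, adjusted p = 0.0956), although its groups did not overlap. Of 16 cytosolic and mitochondrial heat shock genes 3 rose (18.8%, beside 3.63% of all genes tested) and 0 fell. The 3 were Hsph1 (1.01, SE 0.22, adjusted p = 0.0147), Hsp90ab1 (0.60, SE 0.15, adjusted p = 0.0261) and Hspa4 (0.55, SE 0.16, adjusted p = 0.0403). Of 32 respiratory chain subunits 2 rose (6.25%, below the 8.52% of all genes tested), Ndufs1 (0.63, SE 0.18, adjusted p = 0.0454) and Uqcrc2 (0.42, SE 0.12, adjusted p = 0.0442). In these 3 lists 0 members passed without preparation 1 or without preparation 3.

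Il23a and Cd69, described above, were the 2 of 27 NF-kB and cytokine genes that rose, and 0 fell, a share of 7.41% beside 8.52% of all genes tested. Of 26 interferon-induced genes 0 passed. Ifi27, one of them, had 44.9, 55.8 and 53.4 CPM in 24 h GLT, against 65.4, 61.4 and 69.8 CPM in condition 2 (-0.35, SE 0.36, adjusted p = 0.63). Of 27 BCL2 family and caspase genes, 3 rose and 1 fell (14.8%, beside the same 8.52%). Casp12 (2.08, SE 0.48, adjusted p = 0.0177) and Casp4 (1.09, SE 0.27, adjusted p = 0.0238), caspases of the inflammatory branch, were among those that rose. Casp12 had 2.86, 1.74 and 2.88 CPM in 24 h GLT, against 0.655, 0.416 and 0.692 CPM in condition 2. Without preparation 1 or 3, 0 of the caspase genes passed.

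Cell cycle genes were lower where they passed, 5 of 34 falling (14.7%, beside 4.89% of all genes tested) and 0 rising with a median of -0.57. Pcna, the sliding clamp of DNA replication, had 56.7, 52.8 and 53.1 CPM in 24 h GLT, against 135, 117 and 104 CPM in condition 2 (-1.13, SE 0.18, adjusted p = 0.00236). The mitotic kinase gene Aurkb (-1.78, SE 0.35, adjusted p = 0.00718) and the cyclin genes Ccna2 (-1.60, SE 0.36, adjusted p = 0.0167), Ccnb1 (-1.43, SE 0.41, adjusted p = 0.0421) and Ccnd1 (-0.57, SE 0.15, adjusted p = 0.0331) fell too, Aurkb, Ccna2 and Ccnb1 at 1.52 to 2.79 CPM in condition 2. Mki67 (-0.99, SE 0.43, adjusted p = 0.172) did not pass. In the circadian clock list, 3 of 16 passed (18.8%, beside 8.52% of all genes tested), all of them genes of the negative limb. Cry1 had 29.4, 20.2 and 20.8 CPM in 24 h GLT, against 5.93, 8.08 and 5.71 CPM in condition 2 (1.84, SE 0.23, adjusted p = 0.00037). Per2 had 54.3, 45.6 and 54.4 CPM in 24 h GLT, against 13.6, 12.6 and 28.2 CPM in condition 2 (1.59, SE 0.27, adjusted p = 0.00322). Cry2 moved the other way, with 57.9, 67.7 and 97.2 CPM in 24 h GLT, against 246, 188 and 262 CPM in condition 2 (-1.66, SE 0.36, adjusted p = 0.0129). In all 3 clock genes the groups did not overlap. Of zinc genes, the transporter genes Slc39a6 (0.57, SE 0.15, adjusted p = 0.0294) and Slc30a6 (0.60, SE 0.17, adjusted p = 0.0394) rose. Slc30a2 passed as lower on 1 read over the 24 h GLT libraries together, and no fold is given for it. The metallothionein entries Mt1a, with 896, 529.7 and 461 CPM in 24 h GLT, against 4218, 4638 and 2196 CPM in condition 2 (-2.54, SE 0.79, adjusted p = 0.0598), and Mt2A (-2.33, SE 0.94, adjusted p = 0.144) did not pass though their groups did not overlap; these genes have near-identical copies. Without preparation 1, 1 cell cycle gene and 1 clock gene passed; without preparation 3, 0 and 1.

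GLT with compound D for 24 h against 3 h gave a comparison with undisputed labels that shares no library with 24 h GLT or condition 2; it covers the same span of time as 24 h GLT against condition 2 under the sheet, but not under the records. Between its 24 h and 3 h libraries 769 genes passed (6.11%), 386 higher (3.07%) and 383 lower (3.05%). Of these, 323 also passed between 24 h GLT and condition 2, which is 42.0% of the compound D genes and 30.1% of the 1072, and 318 of the 323 had the same sign. In 24 h GLT over condition 2, 717 of the 769 (93.2%) had the sign that they had with compound D, beside 67.4% of all genes. Cry1 had a log2 fold change of 1.84 in 24 h GLT over condition 2 and 1.80 with compound D, Iapp of -1.51 and -1.59, and Nr4a3 of -3.41 and -4.33, each past the threshold in both. Under compound D 7 of 40 immediate early genes and 5 of 19 endothelial markers fell, and 14 of 26 antioxidant genes rose. Of the cholesterol genes 12 of 28 were lower under compound D against 1 in 24 h GLT over condition 2, and of the chaperone genes 7 of 27 against 1; no member of either list passed the test of the difference between the changes.

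**Figure D4:**
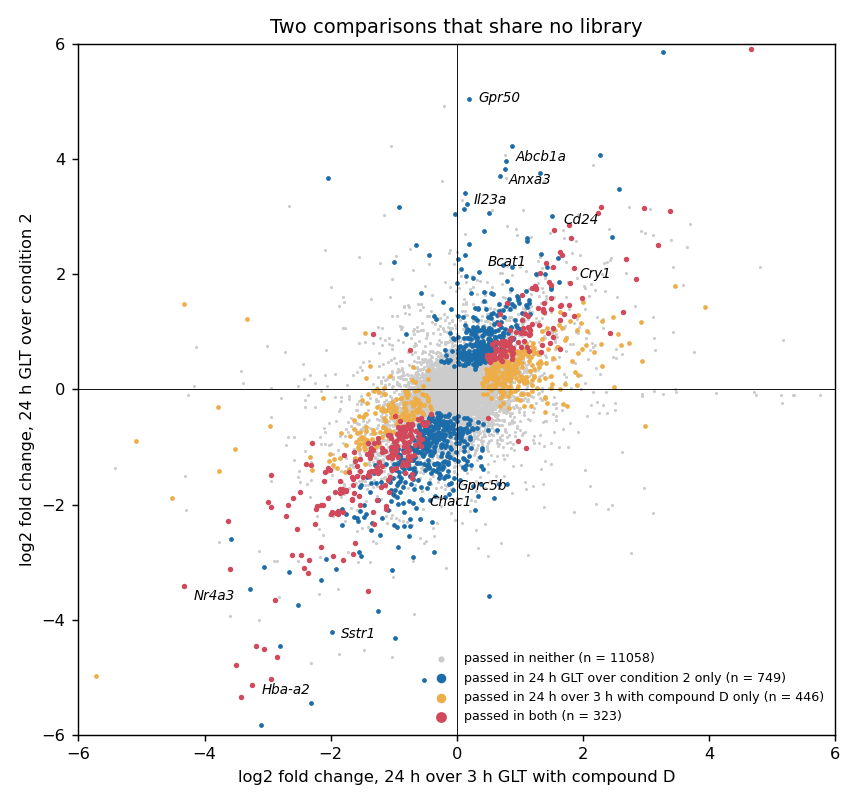
Each point is a gene, with its log2 fold change of 24 h over 3 h GLT with compound D (horizontal axis) and of 24 h GLT over condition 2 (vertical axis); colours give which test it passed, and 9 genes lie outside the axes. Nr4a3 and Hba-a2 fell in both, and Cry1 and Cd24 rose in both. Gpr50, Abcb1a, Il23a and Anxa3 lie high on the vertical axis, at 0.20, 0.78, 0.12 and 0.68 on the horizontal. Among them, only Il23a and Anxa3 passed the test of the difference between the changes.

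The difference between those changes passed the test in 4 genes (0.0318%), 3 with a positive difference (0.0239%) and 1 with a negative one (0.00795%). Il23a had a log2 fold change of 3.13 (SE 0.26) in 24 h GLT over condition 2 and 0.12 (SE 0.25) with compound D, a difference of 3.01 (adjusted p = 0.00257). Anxa3 changed by 3.71 (SE 0.30) and 0.68 (SE 0.29; difference 3.03, adjusted p = 0.01). Bcat1, the cytosolic branched-chain aminotransferase, changed by 2.04 (SE 0.19) and 0.34 (SE 0.19; difference 1.69, adjusted p = 0.0393), with 47.4, 38.3 and 96.2 CPM in 24 h GLT, against 12.4, 11.95 and 16.9 CPM in condition 2. Gprc5b, an orphan receptor gene, changed by -1.64 (SE 0.12) and -0.12 (SE 0.12; difference -1.52, adjusted p = 0.00257), with 65.7, 73.1 and 51.7 CPM in 24 h GLT, against 213, 205 and 172 CPM in condition 2. The groups did not overlap in any of the 4. Gpr50 (5.05 and 0.20, adjusted p of the difference = 0.225), Abcb1a (3.97 and 0.78, 0.0751) and Chac1 (-1.93 and -0.55, 0.16) did not pass this test. At an unadjusted p below 0.05 there were 1012 genes (8.05%), and DESeq2 called 87. Mean levels in 24 h GLT and 24 h GLT with compound D were 62.45 and 5.687 CPM for Il23a, and 14.47 and 1.862 CPM for Anxa3. They were 60.62 and 15.41 CPM for Bcat1 and 63.5 and 85.84 CPM for Gprc5b. In condition 2 and 3 h GLT with compound D, Il23a averaged 6.76 and 5.349 CPM and Anxa3 1.087 and 1.157 CPM. Bcat1 averaged 13.76 and 12.24 CPM there, and Gprc5b 196.6 and 92.08 CPM. Compound D and condition 2 both differ between the comparisons, and the part of each was not tested.

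Condition 3 against 3 h control is a further pair of groups, 24 h against 3 h of control medium in the sheet and GLT against control at 3 h in the records, and shares no library with 24 h GLT or condition 2. There 87 genes passed (0.692%), 59 of them also between 24 h GLT and condition 2 (67.8% of the 87 and 5.50% of the 1072), all 59 with the same sign. The condition 3 library of preparation 2 stood apart, with 23.4% of reads having several alignments, against 5.25% and 5.90% in preparations 1 and 3. Its Rn45s share was 0.0333%, against 1.37% and 1.98%. In preparation 1 ambiguous reads were 2.03% in 3 h control and 0.66% in condition 3. Without the condition 3 library of preparation 2, 22 genes passed, and 0 did when only these 2 groups were fitted. Hba-a2 changed by -3.58 there, Dmp1 by -3.46, Plvap by -2.37 and Cd24 by 1.94, each past the threshold. The difference between the changes passed in 9 genes (0.0716%), 4 with a positive difference (0.0318%) and 5 with a negative one (0.0398%). An unadjusted p below 0.05 was reached by 1050 genes (8.35%), and DESeq2 called 111. The difference was positive for Il23a (3.97, adjusted p = 0.000156), Abcb1a (4.42, 0.00576), Bcat1 (1.97, 0.00587) and Anxa3 (2.84, 0.0102). It was negative for Gprc5b (-1.61, adjusted p = 0.000901), Ypel4 (-2.97, 0.0023), Dos (-1.19, 0.0296), the lysosome-related organelle gene Hps4 (-1.39, 0.0433) and the ATP-gated channel gene P2rx3 (-1.38, 0.0459).

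**Figure D5:**
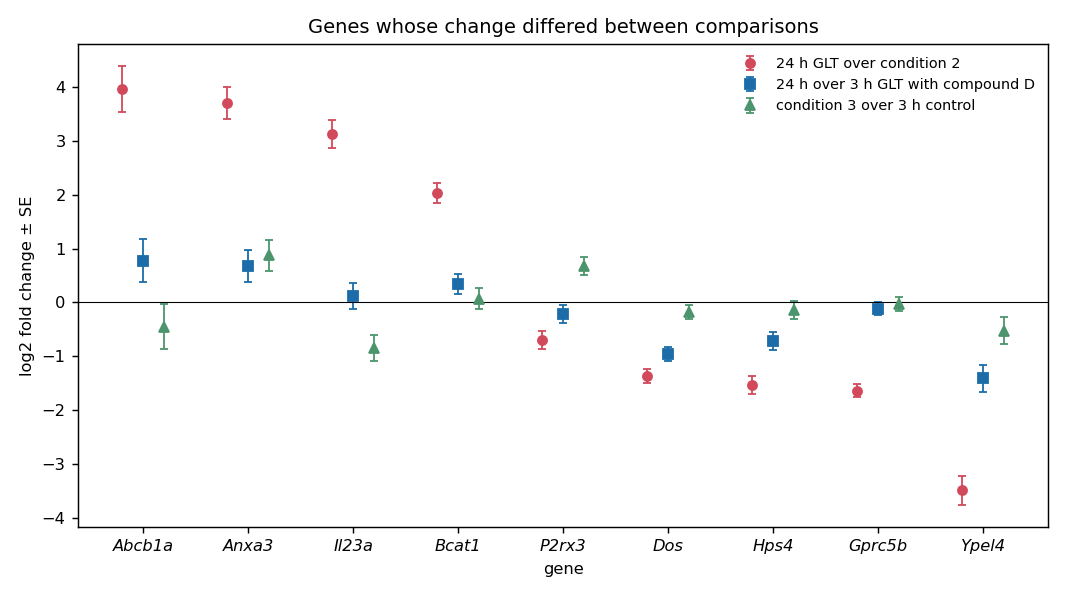
Fitted log2 fold changes (points) with standard errors (bars) of the 9 genes in 3 comparisons: 24 h GLT over condition 2, 24 h over 3 h GLT with compound D, and condition 3 over 3 h control. In Abcb1a, Anxa3, Il23a and Bcat1 the first is above 2 while the other comparisons lie between -1 and 1.

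With compound E, only preparation 2 held libraries of both times, so no test could be made. There, 1063 of the 1072 genes (99.2%) differed between 24 h and 3 h in the direction they had in 24 h GLT over condition 2, beside 79.7% of all genes. Il23a had 50.03 CPM in 24 h GLT with compound E and 6.53 CPM in 3 h GLT with compound E, Gprc5b 65.5 CPM in 24 h GLT with compound E and 169 CPM in 3 h GLT with compound E and Anxa3 12.5 CPM in 24 h GLT with compound E and 1.28 CPM in 3 h GLT with compound E.

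The 3 pairs differed in size and, for part of the genes, in direction. The sign was the same in 73.9% of all genes tested between preparations 1 and 2. It was the same in 74.3% between 1 and 3 and in 70.1% between 2 and 3. Genes beyond 2-fold numbered 1421, 1169 and 1981 in preparations 1, 2 and 3, with more lower than higher in each (829, 697 and 1255 lower). Across the 12576 genes, which are not independent replicates and share the libraries' depth and composition, Pearson's r of the log2 differences was 0.651 between preparations 1 and 2, 0.585 between 1 and 3 and 0.516 between 2 and 3. The median log2 difference of the immediate early genes was -0.75, -0.86 and -1.54 in the 3 pairs. For fatty acid oxidation it was 0.24, 0.22 and 0.37. In some other lists its sign differed between pairs, as for the NF-kB and cytokine genes (0.16, 0.5 and -1.12).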

How the data were processed

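RNA from about 1000 islet equivalents per sample was sequenced as paired 100 bp reads. Per the labels' protocols and the submitters' processing notes, the authors' alignment to rn5 used Bowtie2 2.0.0 under TopHat2 2.0.3, and HTSeq gave the counts; annotation and strand setting are not given in the sources used here, so reads of overlapping antisense genes cannot be told apart. The deposited values are raw counts for 17025 genes. The table's 5 entries that name no gene entered neither the depth nor any test (reads outside genes 13.9% to 16.7% of a column of the 6 libraries, reads with several alignments 5.24% to 8.51%, ambiguous reads 0.64% to 2.32%).

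All 21 libraries were fitted together in edgeR 4.0.16 (R 4.3.3), with condition and preparation as terms: TMM scaling, filterByExpr (12576 genes), quasi-likelihood test, Benjamini-Hochberg adjustment over all genes, threshold 0.05. Preparations pair the samples by design, since libraries of 1 preparation come from the same pool of 8 rats; deviations of 24 h GLT and condition 2 libraries of the same preparation correlated at 0.239, 0.368 and 0.464. Libraries of a group differed beyond counting error (lowest chi-square per degree of freedom 29.0). DESeq2 1.42.0, other scalings, no filter, no block, only the groups compared and left-out libraries were tried.

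The genes named were the 12 largest rises and 12 largest falls with at least 5 CPM in 1 group and the same sign in all pairs, up to 6 members that passed per list (2 where none did), up to 8 genes per difference, and the hormone genes; a few further members and exceptions are named as such, and some members are not reported here. The members and the 31 lists (638 of 667 symbols matched, 624 tested) were chosen with earlier results of these data known. Steps were tested on simulated data. Promoters are those of RefSeq, GRCr8; no rn5 coordinates were converted.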

Additional observations from a re-analysis of the deposited data

Results flagged for a closer look

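The change in 24 h GLT over condition 2 differed from the change over 24 h against 3 h of GLT with compound D in 4 genes, by the test of the difference itself: Anxa3 by 3.03 on the log2 scale, Il23a by 3.01, Bcat1 by 1.69 and Gprc5b by -1.52. The same change differed from that of condition 3 against 3 h control in 9 genes: Abcb1a by 4.42, Il23a by 3.97, Anxa3 by 2.84, Bcat1 by 1.97, Dos by -1.19, P2rx3 by -1.38, Hps4 by -1.39, Gprc5b by -1.61 and Ypel4 by -2.97. Condition 2 carries conflicting labels in both comparisons and condition 3 in the second, so the length of exposure and the medium cannot be told apart in these differences. In the first, compound D is present on 1 side only, and its part was not tested.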

How the results depend on the processing

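The count of genes between 24 h GLT and condition 2 (1072) was 633 with scaling by library size only and 3263 when only the 2 groups were fitted; DESeq2, DESeq2 size factors, no filter and both settings added after seeing the data kept it within 1.5 times, at 961 to 1582. Without the preparation as a replicate block it was 604, and the other counts were 382 (24 h against 3 h with compound D, 769 with the block), 17 (condition 3 against 3 h control, 87), 0 (difference to compound D, 4) and 3 (difference to condition 3 against 3 h control, 9). DESeq2 gave 1328, 387, 87 and 111 for these 4 counts, in the same order. Library size only gave 240 and 32 for the first and second and 5 for the fourth, and fitting only the groups compared gave 1885, 0, 10 and 5. Without Ins1, Ins2 and Rn45s in the table the difference to compound D held 7 genes. Leaving out 1 preparation or library gave 21 to 1222 genes for 24 h GLT over condition 2, 9 to 798 for compound D, 1 to 81 for condition 3 against 3 h control, 0 to 7 and 0 to 15 for the differences; the cause was not tested beyond the loss of samples. Of 114 genes that the rule for naming chose and that passed, 65 passed in the 8 settings that left out no library. All 114 kept their sign in all 17 settings. The settings reuse the same libraries, and each gene had the same sign in all 3 pairs, so a kept sign is no independent check. Without preparations 1, 2 and 3 in turn, 103, 14 and 89 of the 114 no longer passed. Genes at a few reads, such as the globins, are limited by depth.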
